A study of Homo sapiens with 15 samples.

Results

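The genes described here encode the collagens, the laminins and the integrins, the proteins from which a basement membrane is built and the receptors through which epithelial cells hold on to it. Members were chosen by symbol, as COL followed by a number, A and a number, as LAMA, LAMB or LAMC followed by a number, and as ITGA or ITGB followed by a number or a single capital letter. In RefSeq 81 symbols follow this pattern. A total of 77 of the 19775 genes read from the arrays were members, 43 of them collagen genes, 10 laminin genes and 24 integrin genes, and the other 4 symbols were not analysed here, ITGB6 among them because its probe sets also carry another gene's symbol. The cells were Caco-2, a line of epithelial cells that was started from a human colon carcinoma, here not yet differentiated, and each of 15 treatments of 24 h was read on 1 Affymetrix array. The controls were medium alone, 100 mM NaCl and 5 mM butyrate, a fatty acid that gut bacteria release from fibre and a known inhibitor of histone deacetylases. The other 12 arrays came from cells given serum-free medium with 10% by volume of cell-free fluid from a colon simulator, run for 48 h with 0%, 1% or 2% polydextrose, a glucose polymer that is fermented slowly. The simulator has 4 vessels in sequence. Vessel 1 stands for the ascending, vessel 2 for the transverse and vessel 3 for the descending colon, and vessel 4 for the sigmoid and rectal end, which gave 4 arrays per concentration. The labels name 1 culture per array and no repeated simulation. The p-values therefore measure only the spread left between arrays once concentration and vessel are fitted. They do not cover repeated cultures or simulations, and polydextrose cannot be told apart from any other difference between simulator runs.

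In a basement membrane, type IV collagen chains form a network and laminin trimers, each made of an alpha, a beta and a gamma chain, form a layer against the cell. Integrins are pairs of an alpha and a beta chain in the plasma membrane. In gut epithelium the pairs of ITGB1 with ITGA2, ITGA3 or ITGA6 bind collagen or laminin, the pair of ITGA6 and ITGB4 anchors hemidesmosomes, and ITGAV with ITGB5 or ITGB8 binds proteins such as vitronectin or latent TGF-beta. Fibrillar collagens such as type I are mostly products of fibroblasts.

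All values are deposited log2 signals, and a difference of 1 is a 2-fold difference. A value of 5 was taken as the limit under which signal was not read as a level, and values of different genes are not set against each other, since probe sets differ in how brightly they bind. The arrays were alike in overall signal, with 42.3% to 44.1% of genes at 5 or more. The number of arrays, 1 per treatment, limits the precision. Of 12 colon epithelial markers 7 were at 5 or more in all arrays, among them EPCAM, CDH1 and KRT20, while VIL1, CDX1, CDX2, GPA33 and LGALS4 were under 5 in all of them. Of 8 endothelial markers 7 were under 5 in all arrays, as were 9 of 10 leukocyte markers. RNA integrity was read from ACTB as its 3′ minus its 5′ control signal, which came to 0.95 for medium, 0.64 for NaCl and 0.59 for butyrate. Among the fluids it was highest in vessel 1 at each concentration, at 0.73 with 0%, 0.92 with 1% and 0.62 with 2% polydextrose, against 0.37 to 0.64 in the other vessels. The same difference for GAPDH was -0.11 for medium, -0.06 for NaCl and -0.12 for butyrate. Among the vessels GAPDH was highest in vessel 1 with 0% (-0.06) and 1% (0.04) and lowest there with 2% polydextrose (-0.11).

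Most members gave no signal in these cells. Of the 77 members, 55 were under 5 in all 15 arrays, 17 were at 5 or more in all of them and 5 in some, and these 5 were all collagens. Among the basement membrane collagens, COL4A2 was at 5 or more in all arrays and COL4A1, which encodes its usual partner chain, ranged from 3.83 to 5.04. The other 4 genes for type IV chains stayed under 5, as did COL7A1, the anchoring fibril collagen (2.98 to 4.34), and COL18A1, the source of endostatin (2.63 to 3.42). Of the 11 fibrillar collagens only COL1A1 reached 5. COL1A2, which encodes the second chain of type I collagen, ranged from 1.83 to 2.67. The laminin chains with signal were LAMA5, LAMB1, LAMB2, LAMB3 and LAMC1. The integrins with signal were ITGA2, ITGA3, ITGA5, ITGA6, ITGAE, ITGAV, ITGB1, ITGB4, ITGB5 and ITGB8, so each family of receptors named above had a measured alpha and beta chain. ITGAE, the alpha chain known from lymphocytes of the gut epithelium, was also at 5 or more in all arrays, at 8.69 to 9.44, while ITGAL, ITGAM, ITGAX and ITGB2, which are chains of other leukocytes, were not. A gene was tested between fluids where it reached 5 in at least 4 of the 12 fluid arrays. That left 20 members and 8737 genes in all, and the other 57 members had no test.

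**Figure D1:**
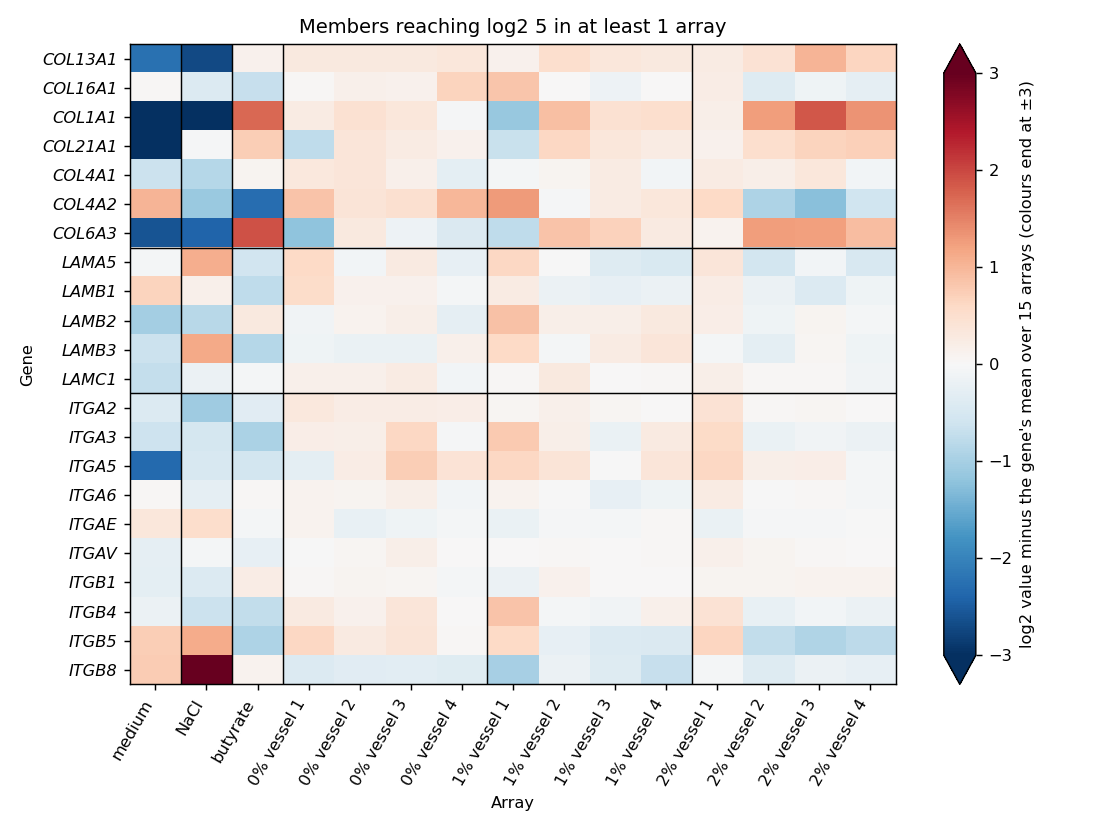
Log2 value of each member that reached 5 in at least 1 array (rows, collagens, laminins and integrins in turn), minus its own mean over the 15 arrays (columns). Red is above and blue below that mean, and colours end at 3 on either side. COL1A1, COL13A1 and COL6A3 are blue in medium and NaCl, and ITGB8 is red with NaCl. COL4A2 is blue with NaCl, with butyrate and in vessels 2 to 4 of 2% polydextrose.

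Sequence around the start site is shown for 5 members, COL4A2 and LAMB1 because they were lower with 2% polydextrose and with butyrate, ITGA5 and ITGB8 because they stood above medium with NaCl, and COL13A1 because it had signal with butyrate and the fluids only. Each stretch is RefSeq's on GRCh38.p14 over 300 bases around an annotated start, 5′ to 3′ on the gene's strand. For ITGB8 the start in that table lies inside the gene, whose annotated span begins upstream of the window at 20329766. RefSeq entries were matched for 54 members, with 73 start sites. The windows lie at chr13:110307034-110307333 (plus strand) for COL4A2, chr7:108003112-108003411 (minus strand) for LAMB1, chr12:54419217-54419516 (minus strand) for ITGA5, chr7:20330650-20330949 (plus strand) for ITGB8 and chr10:69801656-69801955 (plus strand) for COL13A1. Capitals mark every match, on either strand, to 4 short motifs, the GC box GGGCGG, the CCAAT box CCAAT, the AP-1 site TGACTCA and the TATA box TATAAA, none of which contains another.
COL4A2: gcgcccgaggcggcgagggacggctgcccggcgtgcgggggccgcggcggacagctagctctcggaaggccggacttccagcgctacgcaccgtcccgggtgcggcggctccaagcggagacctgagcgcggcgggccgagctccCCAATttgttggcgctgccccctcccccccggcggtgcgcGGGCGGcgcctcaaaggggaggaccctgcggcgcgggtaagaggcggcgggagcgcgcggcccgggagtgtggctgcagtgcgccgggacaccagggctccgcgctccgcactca
LAMB1: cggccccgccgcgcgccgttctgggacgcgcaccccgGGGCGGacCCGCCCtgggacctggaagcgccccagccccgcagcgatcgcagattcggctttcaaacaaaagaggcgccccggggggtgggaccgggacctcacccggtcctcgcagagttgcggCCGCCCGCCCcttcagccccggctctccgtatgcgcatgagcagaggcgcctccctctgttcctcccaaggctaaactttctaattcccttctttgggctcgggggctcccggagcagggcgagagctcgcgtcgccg
ITGA5: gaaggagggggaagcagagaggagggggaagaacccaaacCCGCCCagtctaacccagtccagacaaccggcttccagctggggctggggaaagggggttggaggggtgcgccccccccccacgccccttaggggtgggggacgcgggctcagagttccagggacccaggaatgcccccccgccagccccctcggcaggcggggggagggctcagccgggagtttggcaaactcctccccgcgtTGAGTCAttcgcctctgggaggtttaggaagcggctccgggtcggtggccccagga
ITGB8: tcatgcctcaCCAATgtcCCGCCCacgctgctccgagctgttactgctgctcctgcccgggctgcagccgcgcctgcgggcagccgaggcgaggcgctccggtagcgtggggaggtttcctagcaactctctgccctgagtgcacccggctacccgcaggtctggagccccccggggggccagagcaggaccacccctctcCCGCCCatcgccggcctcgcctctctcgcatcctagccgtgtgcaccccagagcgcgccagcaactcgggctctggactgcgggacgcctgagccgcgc
COL13A1: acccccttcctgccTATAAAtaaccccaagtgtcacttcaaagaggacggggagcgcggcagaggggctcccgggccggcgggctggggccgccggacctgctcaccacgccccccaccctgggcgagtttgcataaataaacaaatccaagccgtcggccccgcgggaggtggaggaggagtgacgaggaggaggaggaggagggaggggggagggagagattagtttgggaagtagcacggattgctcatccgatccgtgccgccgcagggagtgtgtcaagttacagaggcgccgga
The COL4A2 window holds 1 GC box and 1 CCAAT box, and the LAMB1 window 4 GC boxes with no other match. ITGA5 has 1 GC box and 1 AP-1 site, ITGB8 has 2 GC boxes and 1 CCAAT box, and COL13A1 has 1 TATA box. Over all 35116 RefSeq windows of this length, 45.0% held a GC box, 34.6% a CCAAT box, 4.9% an AP-1 site and 11.5% a TATA box, against 57.5%, 24.7%, 2.7% and 12.3% of the members' 73 windows. COL4A1 and COL4A2 point away from each other on chromosome 13, with 126 bases between their start sites (110307157 and 110307284), so 226 bases of the COL4A2 window also belong to the window of COL4A1. A match describes letters in the window and not a site in use.

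Fluids from 2% polydextrose were compared with fluids from 0%, which asks what the cells' matrix genes did when the simulated colon had been fed the fibre. COL4A2, ITGB5 and LAMB1 fell and COL21A1 rose. The other tested members, among them all alpha integrin chains, did not pass. In all 4 of 20 members passed at an adjusted p under 0.05 (limma with the vessel as a block, Benjamini-Hochberg over all genes tested), where 20.8% of all 8737 genes did. By direction, 1 member rose against 9.65% of genes, and 3 fell against 11.2%. The median difference was -0.02 over the members and -0.01 over all genes tested.

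COL4A2, a chain of the type IV collagen network, was at 8.23, 7.76, 7.87 and 8.37 in vessels 1 to 4 with 0% polydextrose. With 1% it was at 8.65, 7.35, 7.63 and 7.71, and with 2% at 7.97, 6.46, 6.13 and 6.79. All 4 vessels were lower with 2% than with 0%, by 0.27 in vessel 1 and by more than 1 in each of the others, and the groups overlapped only through vessel 1. The means were 8.06 ± 0.29 with 0% and 6.84 ± 0.80 with 2% (SD, n = 4), a fitted difference of -1.22 (SE 0.21, adjusted p = 0.0064). The gene's second, dimmer probe set differed by -1.25. COL4A1 had no test, at 4.39 to 5.04 with 0% and 4.60 to 5.03 with 2%.

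ITGB5, the beta chain that pairs with ITGAV, was at 9.73, 9.37, 9.49 and 9.13 with 0%, at 9.70, 8.85, 8.68 and 8.67 with 1% and at 9.75, 8.35, 8.20 and 8.31 with 2%. Vessel 1 held nearly the same value at each concentration, while vessels 2 to 4 lay lower with each step of polydextrose. The fitted difference of 2% from 0% was -0.78 (SE 0.17, adjusted p = 0.0161). Its partner ITGAV did not pass, at 11.70 to 11.89 with 0% and 11.73 to 11.87 with 2%, a difference of 0.01 with a 95% interval of -0.15 to 0.16. The 3 other probe sets of ITGB5 were at 5.14 or less on every array and were also lower with 2%.

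LAMB1, the beta chain of the common laminin trimers with LAMC1, was at 10.00, 9.58, 9.57 and 9.40 with 0% and at 9.68, 9.28, 9.05 and 9.32 with 2%. Every vessel was lower with 2% than with 0%, by 0.08 in vessel 4 and 0.53 in vessel 3, although the groups overlapped. The fitted difference was -0.30 (SE 0.08, adjusted p = 0.0256), a smaller change than that of COL4A2, and the second probe set differed by -0.47. COL21A1, a fibril-associated collagen, was at 5.41, 6.54, 6.42 and 6.30 with 0% and at 6.32, 6.69, 6.84 and 6.89 with 2%. It was higher in all 4 vessels, by 0.15 to 0.91, the largest step being in vessel 1, for a fitted difference of 0.52 (SE 0.13, adjusted p = 0.0242).

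COL1A1, the main chain of type I collagen, did not pass. It was at 6.64, 6.86, 6.74 and 6.35 with 0% and at 6.57, 7.66, 8.26 and 7.75 with 2%, so vessels 2 to 4 were higher and vessel 1 was not. The difference was 0.91 (SE 0.29, adjusted p = 0.0556), and it passed when the vessel 1 arrays were left out. It rests on the probe set used, since the other probe sets of COL1A1 were under 5 on every array. LAMA5, the laminin alpha chain of mature gut basement membrane, differed by -0.32 (SE 0.13, adjusted p = 0.105). The intervals of the integrin chains ITGA6 (-0.20 to 0.17) and ITGB1 (-0.10 to 0.22) were narrow around 0, while that of ITGA5, the fibronectin receptor chain, ran from -0.57 to 0.51. LAMB3, a chain of the hemidesmosomal laminin, differed by -0.01 (-0.26 to 0.24), and ITGB4 by -0.21 (-0.54 to 0.11).

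Other tested members did not pass either. ITGB1, the beta chain shared by most integrins, was at 12.50, 12.55, 12.52 and 12.40 with 0% and at 12.55, 12.55, 12.57 and 12.56 with 2%, so the 2% fluids spanned a narrow range. ITGAE was at 9.02, 8.69, 8.80 and 8.86 with 0% and at 8.72, 8.89, 8.89 and 8.91 with 2%, a difference of 0.01 (SE 0.09, adjusted p = 0.954). COL13A1 was at 6.92, 6.93, 6.94 and 6.97 with 0% and at 6.89, 7.07, 7.65 and 7.28 with 2%. Its 0% values lay within 0.05 of each other and only vessels 2 to 4 were higher with 2%, for a difference of 0.28 (SE 0.12, adjusted p = 0.134). COL16A1, a fibril-associated collagen, was at 7.04, 7.15, 7.13 and 7.68 with 0% and at 7.22, 6.63, 6.88 and 6.73 with 2%, a difference of -0.38 (SE 0.20, adjusted p = 0.207).

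Of the 4 calls only that of COL4A2 held without 0% vessel 2, without 0% vessel 3 or without 2% vessel 3. Without 0% vessel 4 or 2% vessel 4 COL4A2 and LAMB1 passed, and without 2% vessel 2 COL21A1 and COL4A2 did. Without 0% vessel 1, or with all vessel 1 arrays left out, 7 members passed, COL16A1, COL1A1 and ITGB4 in addition. Without the vessel as a block 0 members passed, with 2 of 20 at an unadjusted p under 0.05.

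**Figure D2:**
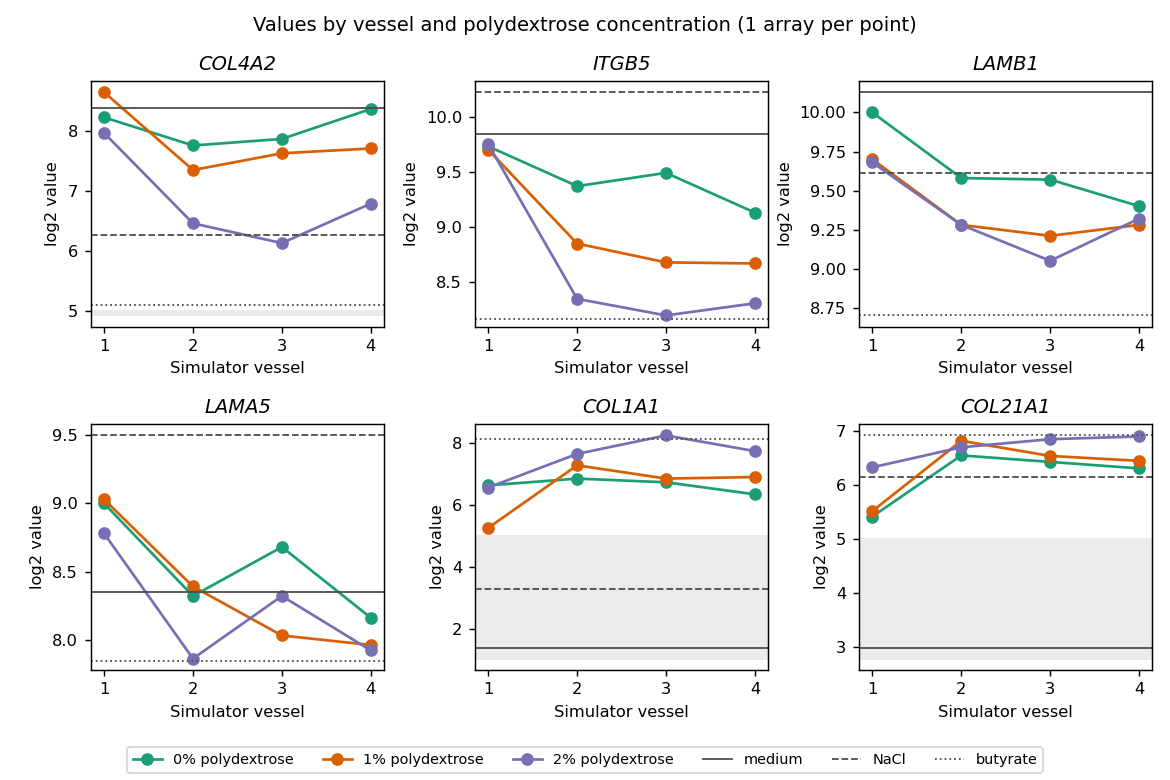
Log2 value (vertical axis, a scale of its own in each panel) of 6 members by simulator vessel (horizontal axis) for 0%, 1% and 2% polydextrose, 1 array per point, with the medium, NaCl and butyrate arrays as horizontal lines. Grey marks values under 5. The 2% line of COL4A2 runs from 7.97 in vessel 1 to 6.13 in vessel 3, ITGB5 starts at 9.70 to 9.75 in vessel 1 at all 3 concentrations, and COL1A1 and COL21A1 lie under 5 in medium.

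At 1% polydextrose none of the members passed against 0%, although 4 of 20 had an unadjusted p under 0.05 and 4.78% of all genes passed (limma). The closest were LAMB1 at -0.27 (SE 0.08, adjusted p = 0.0757) and LAMB3 at 0.38 (SE 0.11, adjusted p = 0.0815). LAMB3 was at 9.07, 9.01, 9.01 and 9.35 with 0%, at 9.80, 9.14, 9.45 and 9.58 with 1% and at 9.14, 8.92, 9.27 and 9.08 with 2%, so only the middle concentration stood higher. LAMB2, the beta chain of the later laminin trimers, also had its highest mean with 1%, the means being 6.78 ± 0.20, 7.18 ± 0.34 and 6.82 ± 0.14 (SD, n = 4). Much of this lay in vessel 1, at 6.70 with 0% and 7.69 with 1%. Vessels 2 to 4 were at 6.54 to 6.98 with 0% and 6.98 to 7.09 with 1%. LAMB2 differed by 0.40 between 1% and 0% (SE 0.15, adjusted p = 0.131). ITGB5 differed by -0.45 (SE 0.17, adjusted p = 0.148), and passed without 0% vessel 1 or with all vessel 1 arrays left out. COL4A2 differed by -0.22 (SE 0.21, adjusted p = 0.547). Both comparisons use the same 0% arrays, so their values are not independent. Between 2% and 1% none of the members passed, with 6 of 20 at an unadjusted p under 0.05, and 0% of all genes passed (limma). COL4A2 had the smallest adjusted p there, at 0.136 for a difference of -1.0 (SE 0.21), and passed with all vessel 1 arrays left out. Without 0% vessel 1 both COL1A1 and COL4A2 passed.

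Fluids of vessel 1, for the ascending colon, were compared with those of vessels 2 to 4 over the 3 concentrations. COL4A2, ITGB5, LAMA5, ITGB4 and LAMB1 were higher in vessel 1, and COL1A1 and COL21A1 were lower. These 7 of 20 members passed where 34.7% of all genes did (limma, concentration as a factor), 5 of them higher against 19.3% of genes and 2 lower against 15.4%. The median difference was 0.15 over the members and 0.02 over all genes. At each concentration the vessel 1 array also had the highest 3′ to 5′ difference of ACTB, while that of GAPDH was highest there with 0% and 1% only. The part of RNA integrity in the members' differences was not tested.

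LAMA5 was at 9.0, 9.03 and 8.78 in vessel 1 with 0%, 1% and 2% polydextrose, and at 7.86 to 8.68 in the 9 arrays of vessels 2 to 4. These groups did not overlap, and the difference was 0.75 (SE 0.12, adjusted p = 0.00242). LAMB1 was at 10.00, 9.70 and 9.68 in vessel 1 and at 9.05 to 9.58 elsewhere, a difference of 0.46 (SE 0.07, adjusted p = 0.00228). Both chains were thus highest in vessel 1 at every concentration. ITGB5 differed by 0.95 (SE 0.16, adjusted p = 0.00328) and was above vessels 2 to 4 at each concentration as well.

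COL4A2 differed by 0.94 (SE 0.20, adjusted p = 0.00755), but with 0% polydextrose its vessel 1 value lay within the range of the others, and only with 1% and 2% did it lie above. ITGB4, the hemidesmosome chain, was at 8.65, 9.25 and 8.82 in vessel 1 and at 8.16 to 8.76 elsewhere, a difference of 0.52 (SE 0.14, adjusted p = 0.017) with overlapping groups. Its partner ITGA6 did not pass at 0.18 (SE 0.08, adjusted p = 0.0993). COL21A1 was at 5.41, 5.51 and 6.32 in vessel 1 and below the other vessels at each concentration, a difference of -0.86 (SE 0.12, adjusted p = 0.00156). COL1A1 was at 6.64, 5.26 and 6.57 in vessel 1, within the others with 0% and below them with 1% and 2%, for -1.03 (SE 0.28, adjusted p = 0.0198). That call rests on the probe set used, since its other probe sets were under 5 on every array and differed by -0.36 to 0.01. With no term for concentration 0 of the 20 members passed and 8 had an unadjusted p under 0.05 (limma), and without 0% vessel 1 a total of 11 passed. Without 1% vessel 1 or without 2% vessel 1 the count was 5, since COL1A1 and ITGB4 lost their calls. COL1A1 then differed by -0.67 (adjusted p = 0.139) and -0.89 (adjusted p = 0.104), and ITGB4 by 0.35 (adjusted p = 0.118) and 0.48 (adjusted p = 0.0817).

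**Figure D3:**
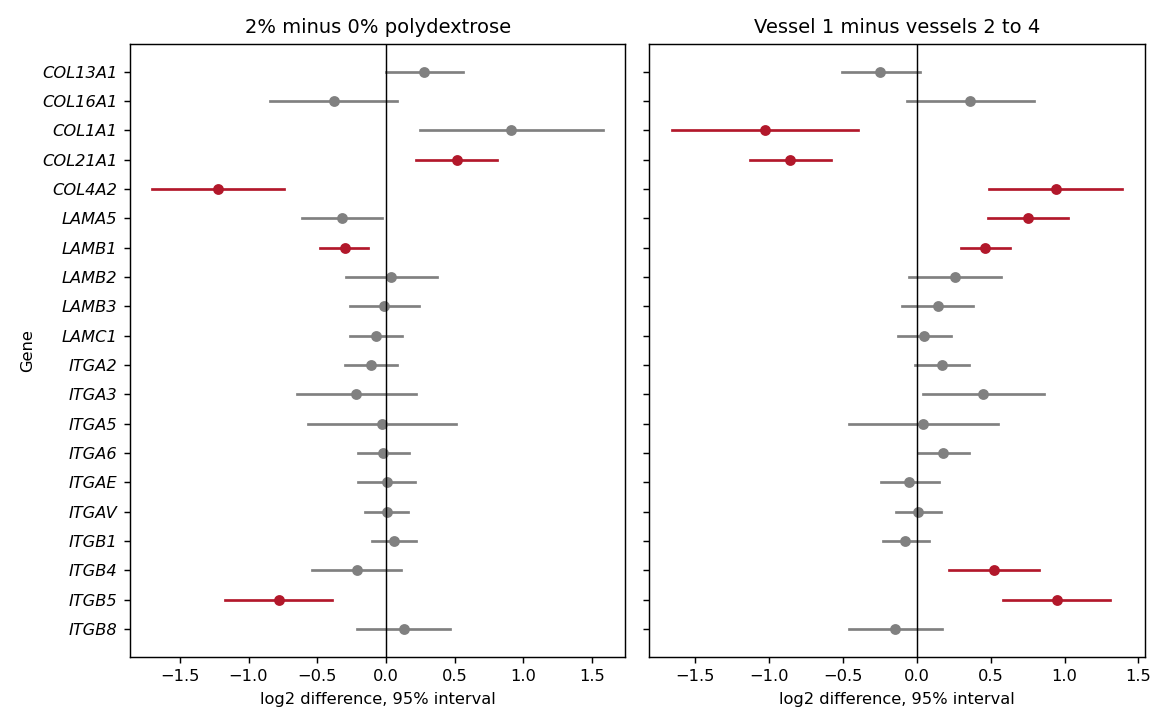
Fitted log2 difference (points) with its 95% interval (lines) for the 20 tested members, between 2% and 0% polydextrose on the left and between vessel 1 and vessels 2 to 4 on the right. Red members passed at an adjusted p under 0.05. COL4A2 is at -1.22 on the left and 0.94 on the right, and most alpha integrin chains lie near 0 on both sides.

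Whether the change with polydextrose differed between vessel 1 and the later vessels was tested as an interaction, in log2 units per 1% polydextrose. Of 20 members only ITGB5 passed, and 1.17% of all genes did (limma). Between 0% and 2% the ITGB5 values of vessel 1 were 0.03 apart, and those of vessels 2, 3 and 4 were apart by -1.01, -1.30 and -0.83, which gave an interaction of 0.54 (SE 0.10, adjusted p = 0.0432). The adjusted p ranged from 0.0123 to 0.343 over the alternatives in which ITGB5 was tested, which leaves out the mean of probe sets. When arrays were left out 1 at a time, ITGB5 passed only without 1% vessel 1, where COL4A2 passed too. It lost its call without any one of 0% vessels 1 to 4, 1% vessels 2 to 4 or 2% vessels 1 to 4, and without 2% vessel 1 (adjusted p = 0.136) COL1A1 passed in its place, in the other direction. COL4A2 had an interaction of 0.64 (SE 0.13, adjusted p = 0.0559) and ITGA5 of 0.62 (SE 0.19, adjusted p = 0.133). LAMB1 had one of -0.01 (SE 0.09, adjusted p = 0.974).

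The butyrate array was set against the medium array, which asks how the members stood with the fatty acid alone. With 1 array on each side there is no test, and members are named from a 2-fold difference, where the brighter side was at 6 or more. COL1A1, COL21A1 and COL13A1 had signal with butyrate and were under 5 in medium, ITGA5 and LAMB2 were higher, and COL4A2, ITGB5 and LAMB1 were lower. These were 5 of 20 members higher, against 15.6% of 8057 genes compared, and 3 lower, against 15.6% of genes. The median was -0.10 for the members and 0.00 for all genes. The medium array had the highest 3′ to 5′ difference of ACTB of all arrays, while for GAPDH medium was at -0.11 and butyrate at -0.12. The part of RNA integrity in the members' differences was not tested.

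COL4A2 was at 8.39 in medium and 5.10 with butyrate, a difference of -3.30, and its second probe set differed by -2.91. ITGB5 was at 9.84 and 8.17, a difference of -1.67, and LAMB1 was at 10.13 and 8.70, a difference of -1.43 that its second probe set showed as well. These 3 genes were also the members that fell with 2% polydextrose. How many of all genes were lower in both comparisons was not counted, so the overlap is not read as particular to the members.

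COL1A1 was at 1.37 in medium and 8.13 with butyrate, at least 3.13 higher against the limit of 5. This was seen by 1 of its 5 probe sets, and the other 4 were under 5 on every array. COL13A1, a transmembrane collagen of cell contacts, was at 4.39 and 6.77, at least 1.77 higher, again in 1 probe set, while its other probe sets were at 4.64 or less. COL21A1 was at 2.98 and 6.91, at least 1.91 higher.

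COL6A3, a beaded filament collagen that was too low to be tested, was at 1.49 in medium, 1.68 with NaCl and 6.0 with butyrate. Before rounding its butyrate value was just under the 6 required, so it is not counted among the members higher with butyrate. In the fluids it was at 2.87 to 4.38 with 0%, 3.32 to 4.95 with 1% and 4.19 to 5.34 with 2% polydextrose, and the 3 fluids above 5 were vessels 2 to 4 of 2%. Fibroblast markers were read beside these collagens. Of 12 markers 10 were under 5 on all arrays, among them PDGFRA, PDGFRB, THY1, DCN, LUM, FAP, COL1A2 and COL3A1, and only COL1A1 and VIM reached 5. The log2 of their summed signal was 5.87 to 8.77 in the 3 arrays without fluid, 7.25 to 7.54 with 0%, 6.72 to 7.83 with 1% and 7.38 to 8.58 with 2% polydextrose. COL1A1, at 1.37 in medium and 8.13 with butyrate, is itself part of this sum. The sum is therefore not a reading of fibroblasts apart from these collagens.

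ITGA5, which forms the fibronectin receptor with ITGB1, was at 5.76 in medium and 7.55 with butyrate, a difference of 1.79. LAMB2 was at 5.77 and 7.09, a difference of 1.32. With NaCl in place of medium as the control, ITGA5 differed by -0.07, since it was at 7.62 there. Against that control COL21A1 (0.76) and LAMB1 (-0.91) were no longer 2-fold apart, and the difference of COL4A2 was -1.16 in place of -3.30. COL13A1, COL1A1, LAMB2 and ITGB5 stayed past 2-fold, and ITGB8, LAMA5 and LAMB3 were also lower with butyrate than with NaCl by 2-fold or more. ITGB1, the common partner chain, was at 12.16 in medium and 12.67 with butyrate, a difference of 0.51 and above all 12 fluids.

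The NaCl array, a salt control, stood apart from medium in part in the same members as butyrate. COL21A1 and ITGA5 were higher and COL4A2 was lower with both. ITGB8, ITGA5, LAMB3, LAMA5 and COL21A1 were higher, 5 of 17 members against 8.93% of 7874 genes compared, and COL4A2 was lower, 1 of 17 against 7.67%. The median was 0.18 for the members and 0.02 for all genes. ITGB8, the beta chain that binds latent TGF-beta with ITGAV, was at 7.96 in medium and 10.87 with NaCl, a difference of 2.91. It was at 7.32 with butyrate and at 6.22 to 7.15 in the fluids, so its NaCl value was the highest of the 15. Its other 4 probe sets were also highest with NaCl, at 9.05, 5.44, 4.77 and 1.93, the last 2 of them under the limit of 5. ITGAV itself was at 11.44 and 11.66.

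LAMB3 was at 8.55 in medium and 10.35 with NaCl, a difference of 1.80, and LAMA5 at 8.35 and 9.50, a difference of 1.15. ITGA5 differed by 1.86. COL21A1 was at 6.15 with NaCl, at least 1.15 higher, and COL4A2 was at 6.26, a difference of -2.13. For LAMC1, the gamma chain shared by most laminins, the probe sets disagreed with NaCl, at 0.53 for the one used and -0.73 for the other.

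**Figure D4:**
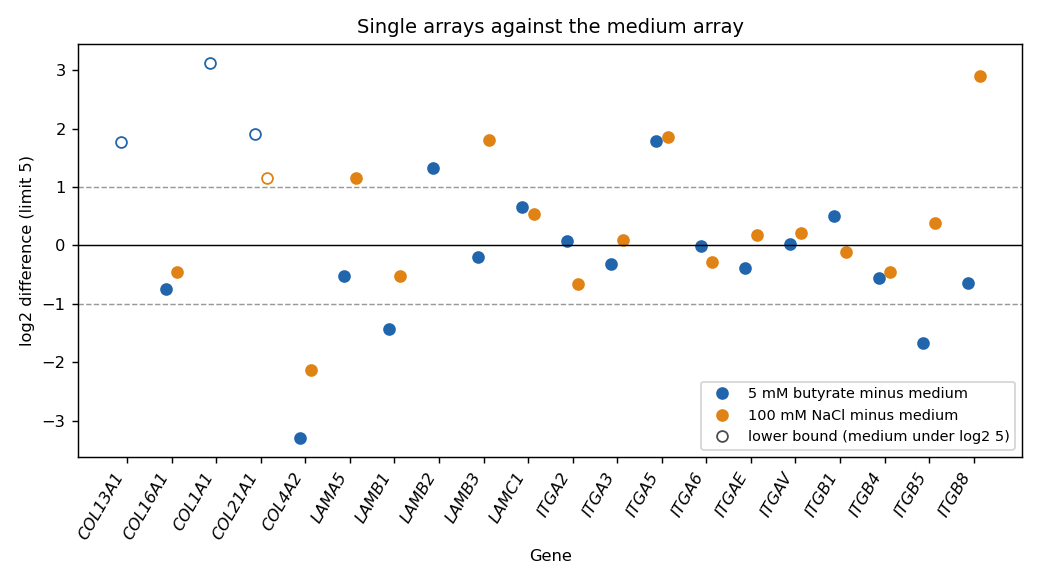
Log2 difference from the medium array (vertical axis) for each member compared, with 5 mM butyrate in blue and 100 mM NaCl in orange, 1 array each. Open circles are lower bounds against the limit of 5, and dashed lines mark a 2-fold difference. COL4A2 is the lowest point for both treatments, at -3.30 and -2.13, and ITGB8 with NaCl is at 2.91.

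The 12 fluids were set against medium and NaCl, with a member named where no fluid overlapped the controls and the mean of the fluids was 2-fold away from the nearer control. COL13A1, at 6.76 to 7.65 in the fluids and 4.39 and 3.93 in the controls, was at least 2.04 higher. COL1A1, at 5.26 to 8.26 against 1.37 and 3.29, was at least 1.93 higher. For both genes the other probe sets were under 5 on every array. ITGB8 was lower, by a difference of -1.13 from medium, the nearer control, which was -0.49 with butyrate among the controls. These were 2 of 20 members higher, against 5.3% of 8151 genes, and 1 lower, against 3.25%. Against the medium array alone all 12 fluids were higher for 11 of 20 tested members (32.6% of genes) and lower for 4 (28.2% of genes). Members and genes had been kept for their signal in the fluids, which favours fluids that stand higher. Among the 11 were COL13A1, COL1A1 and COL21A1, which were under 5 in medium. ITGA5 was at 7.81 to 8.83 in the fluids, above both controls, and ITGA3, a laminin-binding alpha chain, at 7.65 to 8.63. ITGA2, the collagen-binding alpha chain, was at 10.69 to 11.12 in the fluids and at 10.27 and 9.61 in the controls.

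Butyrate was also set against the range of the fluids. It lay below all 12 fluids for 11 of 20 tested members (23.8% of genes) and above all of them for 3 (24.3% of genes), namely COL21A1, ITGB1 and ITGB8. Members and genes had been kept for their signal in the fluids, which leaves out those with signal mainly with butyrate. COL6A3 was left out in this way, at 6.0 with butyrate and 2.87 to 5.34 in the fluids. COL4A2, at 5.10, was below the lowest fluid, at 6.13 in vessel 3 of 2% polydextrose. ITGB5, at 8.17, was just below the lowest fluid, at 8.20 in the same vessel. COL1A1, at 8.13, was within the range of the fluids, whose highest value was 8.26.

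Other genes of matrix assembly and adhesion were counted from 7 lists. With 2% against 0% polydextrose 2 of 14 tested genes for collagen and matrix assembly rose and 1 fell (limma), where 9.65% of all genes rose and 11.2% fell. SERPINH1, the collagen chaperone of the endoplasmic reticulum, fell by 1.82 (SE 0.42, adjusted p = 0.0179), and MIA3, which helps export large cargo such as collagen, rose by 0.56 (SE 0.09, adjusted p = 0.00573), as did TGM2, a matrix crosslinker, by 0.65 (SE 0.15, adjusted p = 0.018). SERPINH1 was at 6.58, 5.79, 6.15 and 5.66 with 0% and at 6.20, 3.61, 3.39 and 3.72 with 2%, so that 3 of the 2% values were under the limit of 5. It was at 8.94 in medium and 3.70 with butyrate, at least 3.94 lower.

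Of 16 integrin adaptors 4 fell (11.2% of all genes) and none rose, among them TNS4 by 0.72, FERMT1, an integrin activator, by 0.70 and PARVA by 0.25 (adjusted p = 0.0286, 0.0369 and 0.0335). Of 14 matrix proteases and inhibitors 3 rose and 1 fell, against 9.65% and 11.2% of all genes. TIMP3, an inhibitor bound to matrix, rose by 1.17 and PLAT, a plasminogen activator, by 1.02 (adjusted p = 0.00317 and 0.00334), and with butyrate 7 of 13 genes of this list were higher and none was lower, against 15.6% of genes each way. Of 6 other matrix receptors 3 fell, HMMR by 1.32, CD44 by 0.71 and SDC1 by 0.81 (adjusted p = 0.00249, 0.00294 and 0.0135), and 1 rose. Of 3 hemidesmosome partners DST fell by 0.29 (adjusted p = 0.0465). None of 4 basement membrane partners and of 6 other matrix ligands passed.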

How the data were processed

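The authors deposited 1 table of values for 54675 probe sets on 15 arrays. As deposited, the log2 values had been background-corrected, normalized and summarized with GCRMA, per the submitters' processing notes, which give no version. That the scale is log2 was inferred from the values, which run from 0.173 to 14.46. Genes were read from the 41097 probe sets with 1 symbol in the platform annotation (1801 had several, 11777 none), and the probe set with the highest mean over all arrays was used, as for 59 of the 77 members with more than 1.

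Fluids were compared with limma 3.58.1 in R 4.3.3, with concentration and vessel as factors (6 residual degrees of freedom), over the 8737 genes at 5 or more in at least 4 of 12 arrays. Tests were two-sided, with Benjamini-Hochberg adjustment over all of them and a threshold of 0.05. The interaction used a linear term for concentration. The vessel block follows the labels. With concentration means taken out, same-vessel pairs of arrays correlated with a median of 0.376 and above 0.1 in 10 of 12 pairs. The code was tested on simulated data.

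In single-array comparisons the brighter side had to reach 6, a difference of 1 was counted, and values under 5 were raised to 5 and the difference given as a bound. The named members are those that passed or were 2-fold apart, the main basement membrane and epithelial chains in any case, and up to 3 passing genes of each other list by smallest p. COL6A3 and several others named beside them were chosen after their values were seen. The members and lists were chosen with earlier results of these data known. Alternatives were other filters, averaging all probe sets of a gene, further normalization, a trended robust prior, other model terms, other controls and leaving out arrays.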

Additional observations from a re-analysis of the deposited data

Results flagged for a closer look

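In 60 groups of 4 arrays, 20 members at 3 concentrations, the gap of the most distant array to its neighbour was compared with the group's range. In 8 groups that share was above Dixon's critical value, where chance gives about 1 in 20 if groups are independent. In 7 of the 8 the distant array was vessel 1. The groups are not independent, since all members were read on the same arrays. Such groups were not counted over all genes, and 34.7% of all genes tested differed between vessel 1 and vessels 2 to 4 (limma). The count is therefore not read as particular to the members. With 1% polydextrose vessel 1 was highest for COL16A1 (a gap of 0.838 of the range), LAMB1 (0.858) and LAMB2 (0.842), and with 2% polydextrose for ITGA2 (0.881), ITGA3 (0.875) and ITGB5 (0.901). ITGAE was lowest in vessel 1 with 2% polydextrose (0.906). LAMC1 was highest in vessel 2 with 1% polydextrose (0.901). The response of ITGB5 to polydextrose differed between vessel 1 and vessels 2 to 4, by 0.54 on the log2 scale per 1% polydextrose in the limma interaction (adjusted p = 0.0432). That call was kept in 5 of 18 alternatives and lost in 13, with adjusted p from 0.0123 to 0.343, and over single arrays it was kept only without 1% vessel 1. With the mean of probe sets ITGB5 was too dim to be tested, so that alternative is not among the 18.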

How the results depend on the processing

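Of 321 alternative values for 29 single differences, 264 kept their direction and their side of the threshold, 56 kept the direction only and 1 reversed (ITGA5 with butyrate, -0.07 against NaCl). Calls lost because a gene was no longer tested, or because its fluids then overlapped the controls, gave no value and are not among the 321. For 2% against 0% polydextrose 4 members passed, 8 with no filter, 7 with all vessel 1 arrays left out, 0 with no replicate block (2 at an unadjusted p under 0.05 by limma) and 1 to 7 when arrays were left out in turn. For 1% against 0% the 0 became 1 with no filter (COL6A3) or with vessel 1 left out (ITGB5), and 0 to 1 over single arrays. For 2% against 1% the 0 became 1 with vessel 1 left out (COL4A2), and 0 to 2 over single arrays. With no block the latter comparisons stayed at 0 of 20, with 2 and 5 at an unadjusted p under 0.05. For vessel 1 the count of 7 became 12 with no filter, 4 with the mean of probe sets, 0 with no concentration term and 5 to 11 over single arrays. For the interaction the count of 1 became 0 with no filter, with the mean of probe sets and with 2% and 0% arrays only, 2 with a filter at 6, with centred arrays and with a trended robust prior, and 0 to 2 over single arrays. For butyrate the 8 members became 5 with the mean of probe sets. For the fluids against the controls the 3 became 0 with the mean of probe sets and 0 with butyrate among the controls. The cause was not tested. Signal near background limits all counts: 57 of 77 members had too little to be tested, and the means of probe sets take in dim ones.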

Other observations

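In the comparison of vessel 1 with vessels 2 to 4, genes of matrix assembly and adhesion that are not members also passed (limma). SERPINH1 was higher in vessel 1 by 2.25 (SE 0.39, adjusted p = 0.00344), PLOD3, a collagen lysyl hydroxylase, by 0.58 (SE 0.12, adjusted p = 0.00637) and MIA3 was lower by a difference of -0.49 (SE 0.09, adjusted p = 0.00422). In all 4 of 14 assembly genes were higher and 3 lower, where 19.3% of all genes were higher and 15.4% lower, shares that hold for the next lists too. Of 16 integrin adaptors 6 were higher, TNS4 by 0.95 and PARVA by 0.41 among them, and 1 was lower, RSU1 at -0.52 (adjusted p = 0.00442, 0.00245 and 0.00375). Of 14 proteases and inhibitors 1 was higher and 5 lower, with TIMP3 at -1.27 and PLAT at -1.09 (adjusted p = 0.00108 and 0.00117). Of 6 other receptors 3 were higher, CD44 by 0.77 among them (adjusted p = 0.00103), and 1 was lower.

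With NaCl TIMP3 was at 10.53 and in medium at 4.23, at least 5.53 higher against the limit of 5. It was at 8.79 with butyrate and at 6.21 to 8.46 in the fluids. TNC, a matrix glycoprotein, was at least 1.77 higher with NaCl than in medium. Of 16 integrin adaptors 4 were higher with NaCl by 2-fold or more and none was lower, against 8.93% and 7.67% of all genes compared, with TNS3 at 1.80 and BCAR1 at 1.28. These differences rest on 1 array each and had no test.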
